A study of Mus musculus with 4 samples.

Results

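The genes described here are 8 early response and glucocorticoid-linked regulators, Cebpd, Myc, Ier3, Tsc22d3, Klf4, Gadd45g, Btg2 and Id3, of 11138 genes measured. They were selected on their own log2 ratios between LPS and saline in these arrays, so their values are given as a description, with no test. Every oligonucleotide whose annotated symbol was exactly 1 of the 8 was taken. Each gene had 1 oligonucleotide, printed as 2 adjacent spots, which made 16 spots, and all 8 genes were measured on all 4 arrays.

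The study compared RNA of cardiac endothelium, the cells that line the vessels of the heart, between mice injected intraperitoneally with LPS and mice injected with saline. LPS, or lipopolysaccharide, coats Gram-negative bacteria and provokes systemic inflammation. Hearts were taken at 4 h or at 24 h, and amplified RNA of both groups was hybridised together on long-oligonucleotide arrays with 2 colours. Each time had 1 array with LPS RNA in Cy5 and saline RNA in Cy3, and 1 array with the dyes reversed. The sources used here name no strain, sex, age, LPS dose or number of animals, and no separate extracts for the reversed arrays. Each pair of arrays was therefore counted as 1 replicate, and the ± below is the SD of that pair (n = 2 arrays). How far this SD includes the spread between animals is unknown.

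Values are log2 ratios of LPS over saline, so 1 unit is a 2-fold difference. The deposited table does not say which dye is the numerator. Red over green was assumed, and values of the arrays with LPS in Cy3 were multiplied by -1, so the direction below is likely but rests on the labelled dyes alone. As deposited, the arrays of a pair correlated at only -0.06 at 4 h and -0.06 at 24 h over 32448 spots. The correlation was also taken over oligonucleotides whose spots lay within 0.5 log2 units on both arrays. Those with a mean ratio of exactly 1 on either array were left out. It reached -0.36 for the 5460 such oligonucleotides of 4 h and -0.49 for the 3969 of 24 h. Of the 8 genes, 7 had opposite deposited signs on the arrays of 4 h and 7 on those of 24 h, against 49.9% and 52.3% of all genes. A call, as defined below, requires opposite deposited signs. If the numerator was Cy3, every higher below would read lower.

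These genes code for regulators that cells switch on within minutes to hours of a stimulus. Toll-like receptor 4, the sensor of LPS, signals through NF-kB and MAP kinases to such early response genes, whose products then set the next wave of transcription. Glucocorticoids, released by the adrenal gland during endotoxaemia, act through the glucocorticoid receptor, a transcription factor that induces anti-inflammatory genes, Tsc22d3 among them.

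Promoter sequences show what surrounds the starts of the genes that moved alike. The RefSeq table of mouse assembly GRCm38.p6 held 8 windows for 6 of the genes, 3 of them for Tsc22d3, and none for Cebpd or Myc. Each window runs from 250 bases before to 50 bases after a transcription start. Shown 5′ to 3′ are Ier3 (chr17:35821463-35821762, plus strand), Gadd45g (chr13:51846425-51846724, plus strand) and Id3 (chr4:136143572-136143871, plus strand), which were higher at both times, and Btg2 (chr1:134079106-134079405, minus strand), which was lower at 24 h. Capitals mark matches, on either strand, to any motif searched.
Ier3: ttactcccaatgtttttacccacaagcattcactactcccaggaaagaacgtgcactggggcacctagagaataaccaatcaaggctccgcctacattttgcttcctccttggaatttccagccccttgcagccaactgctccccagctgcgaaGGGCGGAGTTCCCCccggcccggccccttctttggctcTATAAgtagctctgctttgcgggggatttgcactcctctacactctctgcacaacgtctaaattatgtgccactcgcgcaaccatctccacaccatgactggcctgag
Gadd45g: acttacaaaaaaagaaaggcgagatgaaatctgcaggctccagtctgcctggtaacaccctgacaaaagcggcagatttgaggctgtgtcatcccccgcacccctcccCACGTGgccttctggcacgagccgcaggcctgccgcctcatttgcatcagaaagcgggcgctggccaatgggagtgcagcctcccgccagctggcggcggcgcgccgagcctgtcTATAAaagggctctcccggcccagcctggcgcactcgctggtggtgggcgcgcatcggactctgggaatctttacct
Id3: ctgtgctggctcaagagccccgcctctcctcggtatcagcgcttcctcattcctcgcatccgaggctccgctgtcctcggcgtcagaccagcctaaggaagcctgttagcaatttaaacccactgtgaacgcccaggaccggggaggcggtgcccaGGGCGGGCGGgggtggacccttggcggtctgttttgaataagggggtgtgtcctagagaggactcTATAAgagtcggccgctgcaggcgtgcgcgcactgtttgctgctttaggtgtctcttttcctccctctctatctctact
Btg2: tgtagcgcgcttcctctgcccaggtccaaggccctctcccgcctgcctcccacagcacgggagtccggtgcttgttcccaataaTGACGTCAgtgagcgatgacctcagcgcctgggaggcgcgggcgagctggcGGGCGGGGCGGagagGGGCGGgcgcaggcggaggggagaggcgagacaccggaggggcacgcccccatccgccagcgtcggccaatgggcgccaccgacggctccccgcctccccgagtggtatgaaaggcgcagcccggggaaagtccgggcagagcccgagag

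The motifs searched were TATAA, the GC box GGGCGG, the E-box CACGTG that MYC and MAX bind, the cAMP response element TGACGTCA, the AP-1 site TGANTCA, the glucocorticoid receptor hexamer TGTTCT, the C/EBP site TTGCNNAA and the STAT site TTCNNNGAA. The NF-kB consensus and the CArG box of serum response factor were searched by name. TATAA stood 58 bases before the start in Ier3, 27 in Gadd45g, 29 in Id3 and 31 in Klf4, and 24.9% of all 32851 windows held it. GGGCGG was in at least 1 window of 5 of the 6 genes, all but Gadd45g. That made 6 of the 8 windows, against 35.7% of all windows. CACGTG was found in Klf4 and Gadd45g (7.15% of windows), and TGACGTCA in Btg2, 166 bases before the start (1.79% of windows). Ier3 held the match to the NF-kB consensus, 92 bases before the start on the minus strand, where it overlapped the GC box (4.51% of windows). TGTTCT occurred in the second listed Tsc22d3 window (19.0% of windows) and TTCNNNGAA in the third (8.30% of windows). No window of the 6 genes held TGANTCA, TTGCNNAA or the CArG box, found in 7.81%, 10.8% and 1.63% of all windows. Several of these motifs, the E-box, the cAMP response element, the AP-1 site and the STAT site, read the same on both strands and were counted once per window. A match describes letters and not a bound site.

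To be called at a time, a gene needed a difference of at least 1 log2 unit, in the same direction, on each of its arrays. At 4 h, Cebpd, Myc, Ier3, Gadd45g and Id3 were called higher, 5 of 8, where 2.25% of all genes were called higher. Tsc22d3 was called lower, 1 of 8, where 0.997% of all genes were. At 24 h, Ier3, Tsc22d3, Klf4, Gadd45g and Id3 were called higher (3.48% of all genes), and Btg2 was called lower (3.52% of all genes). Ier3, Gadd45g and Id3 were called in the same direction at both times, as were 0.512% of all genes. Since the genes were selected on these ratios, nothing is read from these shares. The split of calls at 4 h, 251 higher and 111 lower over all genes, became 328 and 233 with quantile normalization and 365 and 226 with scale normalization.

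**Figure D1:**
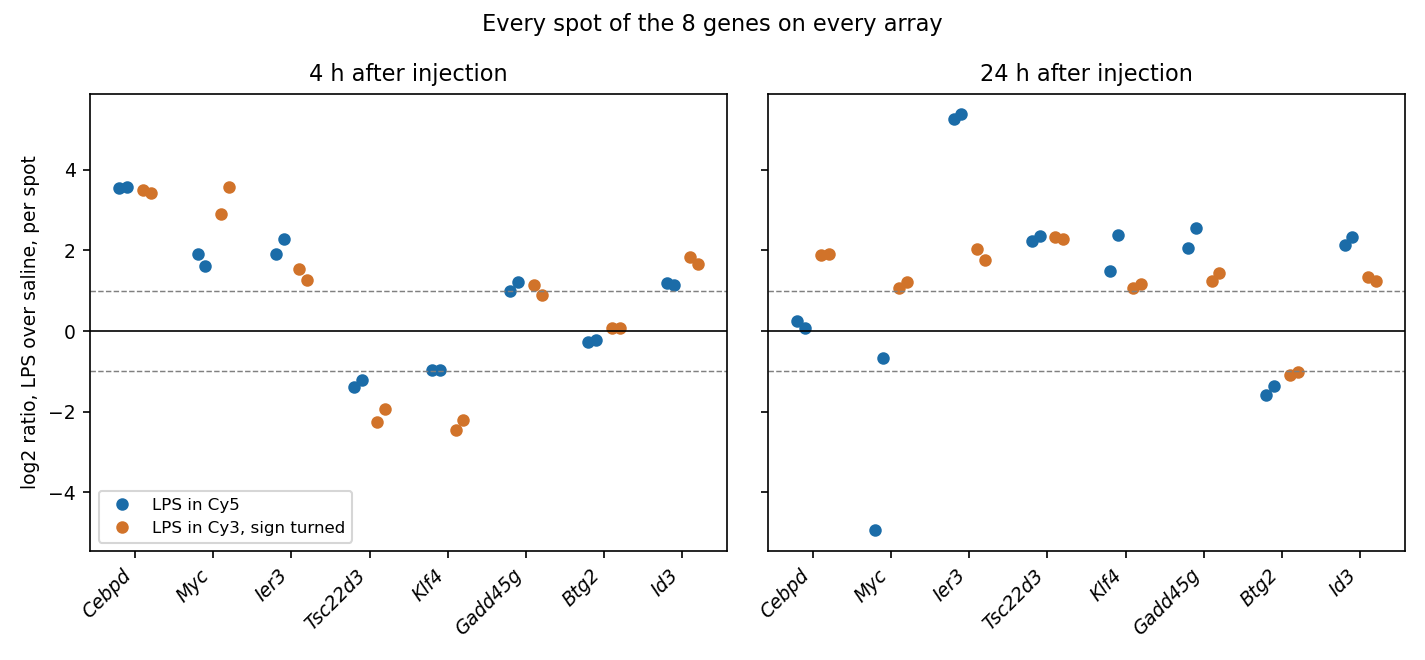
Log2 ratio of LPS over saline (vertical axis) of every spot of the 8 genes at 4 h (left) and 24 h (right), with blue points from the array with LPS in Cy5 and orange points from the array with LPS in Cy3 after its sign was turned; dashed lines mark 1 log2 unit. The 4 Cebpd spots at 4 h lie between 3.41 and 3.57, and the Myc spots of the first array at 24 h lie at -4.94 and -0.67.

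Cebpd codes for C/EBP delta, a basic leucine zipper transcription factor of the acute-phase response. Its spots at 4 h read 3.54 and 3.57 on the array with LPS in Cy5 and 3.51 and 3.41 on the reversed array. All 4 spots were high and close together, with a mean of 3.51 ± 0.07, an 11.4-fold ratio that ranked 28th from the top of all genes. At 24 h the spots read 0.25 and 0.08 on the first array and 1.88 and 1.91 on the second. The arrays did not agree on a 2-fold difference, the mean was 1.01 ± 1.16, and Cebpd was not called. Both arrays of 24 h lay below both of 4 h, and the means differed by -2.50.

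Myc codes for the transcription factor MYC, which drives growth and ribosome synthesis as a dimer with MAX. At 4 h its spots read 1.91 and 1.61 on the first array and 2.89 and 3.56 on the reversed one. All were high, the second array more so, with a mean of 2.50 ± 1.03. At 24 h the spots of the reversed array read 1.06 and 1.22, and those of the first array -4.94 and -0.67. The arrays had opposite signs, and the spots of the first array lay 4.27 log2 units apart, the widest gap among the 32 spot pairs of the 8 genes. The mean at 24 h, -0.85 ± 2.73, therefore has no settled direction.

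Klf4 codes for a Krüppel-like zinc finger factor that in endothelium restrains inflammatory gene expression. At 4 h it read -0.97 and -0.96 on the first array and -2.46 and -2.20 on the second. All spots were low, at a mean of -1.64 ± 0.97, but the first array, at -0.96 after centring, fell just short of the 1-unit threshold, so the gene was not called. At 24 h the spots read 1.49 and 2.39 on the first array and 1.08 and 1.17 on the second, at a mean of 1.51 ± 0.64. Every spot was thus below 0 at 4 h and above 1 at 24 h.

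Id3 codes for a helix-loop-helix protein without a DNA-binding region that sequesters E proteins and is a target of BMP signalling. Its spots at 4 h read 1.19 and 1.13 on the first array and 1.83 and 1.65 on the second, at a mean of 1.46 ± 0.40. At 24 h they read 2.14 and 2.34 on the first array and 1.33 and 1.24 on the second, at a mean of 1.75 ± 0.73. All 8 spots were above 1, and the arrays of the times overlapped, since the second array of 24 h lay below the second of 4 h.

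Tsc22d3 codes for GILZ, a leucine zipper protein that glucocorticoids induce and that binds and inhibits NF-kB. At 4 h the spots read -1.38 and -1.21 on the first array and -2.24 and -1.93 on the second. All 4 were low, at a mean of -1.69 ± 0.57, rank 214 from the bottom of all genes. At 24 h they read 2.24 and 2.35 on the first array and 2.34 and 2.29 on the second. All 4 were high, the mean was 2.28 ± 0.05 at rank 104 from the top, and the arrays of the times did not overlap. The difference of the means, 3.97 log2 units, was the largest in size among the 8 genes.

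Ier3 codes for a small protein induced by NF-kB and stress that modulates cell survival. Its spots at 4 h read 1.92 and 2.27 on the first array and 1.54 and 1.26 on the second, at a mean of 1.76 ± 0.50. At 24 h the first array read 5.27 and 5.38 and the second 2.04 and 1.76. The spots agreed within each array, but the arrays, at 5.35 and 1.83 after centring, did not, so that the mean of 3.59 ± 2.48, at rank 16 from the top, rests largely on the first array. The second array of 24 h, at 1.83, lay between the arrays of 4 h at 1.40 and 2.11.

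Gadd45g codes for a stress-inducible protein that binds the kinase MAP3K4 and arrests growth. At 4 h its spots read 0.99 and 1.23 on the first array and 1.14 and 0.89 on the second, at a mean of 1.07 ± 0.07. The spots lay on either side of 1 on both arrays, and the array values after centring, 1.12 and 1.02, passed the threshold narrowly. At 24 h they read 2.06 and 2.57 on the first array and 1.24 and 1.45 on the second, at a mean of 1.81 ± 0.75. Both arrays of 24 h were higher than both of 4 h, but the means differed by 0.74, less than 1 unit.

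Btg2 codes for an antiproliferative target of p53 that recruits the CCR4-NOT deadenylase. At 4 h its spots read -0.28 and -0.21 on the first array and 0.08 and 0.08 on the second, near 0 with opposite signs and a mean of -0.07 ± 0.22. At 24 h they read -1.58 and -1.37 on the first array and -1.10 and -1.01 on the second. All 4 were low, at a mean of -1.28 ± 0.24, and the means of the times differed by -1.21.

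**Figure D2:**
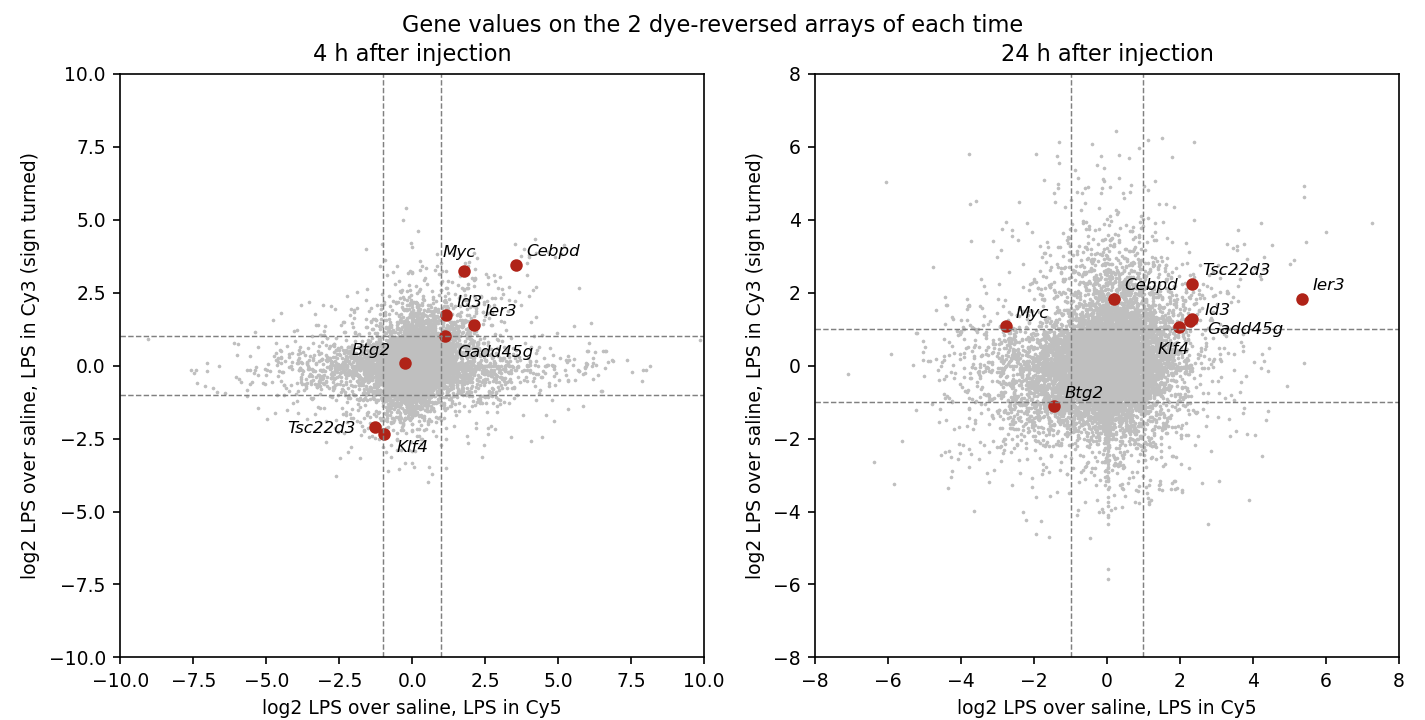
Gene values on the array with LPS in Cy5 (horizontal axis) and the dye-reversed array after its sign was turned (vertical axis), both as log2 LPS over saline, at 4 h (left) and 24 h (right); grey points are all genes, red points the 8 genes, dashed lines 1 log2 unit. At 4 h Cebpd lies at 3.56 and 3.46, and at 24 h Myc lies at -2.78 and 1.08, outside the corner regions of called genes.

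Spots of the 8 genes mostly agreed. Of their 32 spot pairs, 28 lay within 0.5 log2 units, against 57.3% of the pairs of all named oligonucleotides. The exceptions were Myc on the second array of 4 h and the first of 24 h, Klf4 on the first of 24 h, and Gadd45g there at 0.50. Arrays agreed less well. The median gap between the arrays of a pair was 0.64 for the 8 genes and 0.57 for all genes at 4 h, and 1.05 and 0.85 at 24 h. When the 1-unit threshold was applied to all 4 spots instead of the array means, 5 of the 8 were called at 4 h, all but Klf4, Gadd45g and Btg2, where 1.57% of all genes were. At 24 h 6 were, where 3.65% of all genes were. As the genes were selected on the ratios of these same spots, nothing is read from these comparisons with all genes.

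The times were compared next. A gene was separated where the means differed by at least 1 unit and both arrays of a time lay above both of the other. Tsc22d3 and Klf4 were higher at 24 h by this criterion (9.43% of all genes), and Cebpd, Myc and Btg2 were lower (10.3% of all genes). Btg2 was no longer separated after scale or quantile normalization. These shares of all genes are high, and separation is a weaker criterion than a call. Both arrays were below 0 at 4 h and above 0 at 24 h for Tsc22d3 and Klf4, as for 6.46% of all genes. Ier3, Gadd45g and Id3 were not separated, at differences of 1.83, 0.74 and 0.29. Each ratio was taken against the saline RNA on its own array, so a difference between times can come from either group.

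**Figure D3:**
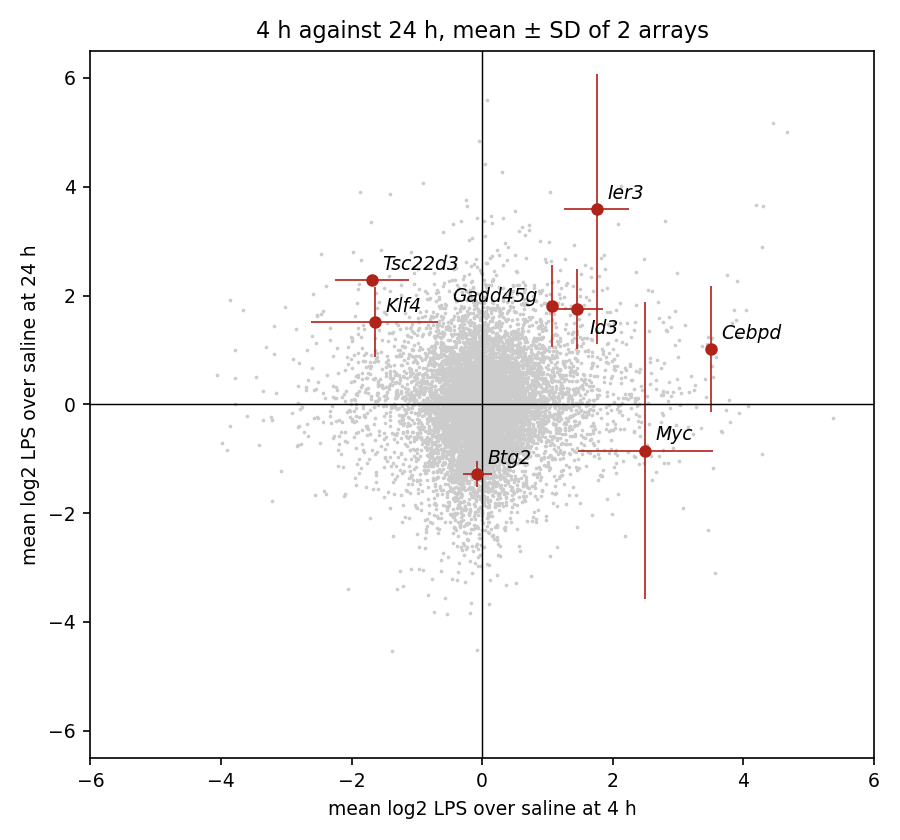
Mean log2 LPS over saline at 4 h (horizontal axis) and at 24 h (vertical axis); grey points are all genes and red points the 8 genes with the SD of their 2 arrays at each time. Tsc22d3 and Klf4 lie at upper left, at -1.69 and -1.64 for 4 h and at 2.28 and 1.51 for 24 h, and Myc and Ier3 have the longest vertical bars, with SDs of 2.73 and 2.48.

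Relatives of the 8 genes were read from the same arrays. Of 42 measured genes of the same families or gene names, 3 were called higher and 0 lower at 4 h, where 2.25% and 0.997% of all genes were, and 1 higher and 1 lower at 24 h, where 3.48% and 3.52% were. Their medians were 0.09 and -0.04, beside -0.02 and -0.02 over all genes. In the C/EBP family Cebpb, which also serves the acute-phase response, was higher at 4 h at 1.63 ± 0.72, on 2.14 and 1.12, and read 0.89 ± 0.49 at 24 h. Cebpa, Cebpg and Ddit3 lay between 0.28 and 0.39 at 4 h and were not called. None of the 10 measured relatives and partners of Myc was called, and Max, its dimer partner, read 0.24 ± 0.02 and 0.03 ± 0.15. Mxi1, a repressor that competes for MAX, read -1.02 ± 0.45 at 4 h, with the arrays at -0.70 and -1.33.

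Among 12 other Krüppel-like factors, none was called at 4 h. At 24 h Klf1, the erythroid factor, was higher at 2.01 ± 0.24, and Klf3, a repressor, was lower at -2.21 ± 0.39. Klf2, the shear-induced endothelial factor, read -0.03 ± 0.44 at 4 h and 0.73 ± 0.52 at 24 h. Tsc22d1, Tsc22d2 and Tsc22d4 were not called, and Tsc22d1 read 0.56 ± 0.21 and -0.53 ± 0.30, opposite in sign to Tsc22d3 at both times. The means of Tsc22d2 had the signs of Tsc22d3, at -1.03 ± 2.23 and 0.08 ± 1.41, but its arrays disagreed in sign at both times. Tsc22d4 read 0.25 ± 0.37 and -0.03 ± 0.25. Gadd45a and Gadd45b, at -0.08 ± 0.12 and 0.08 ± 0.24 at 4 h, were not called at either time. Btg1 was higher at 4 h at 1.46 ± 0.02, and read 0.79 ± 0.10 at 24 h, where Btg2 was low. The other relatives of Btg2 were not called. At 24 h Btg3, Btg4 and Tob2 lay below 0 like Btg2, at -0.91 ± 1.38, -0.54 ± 1.01 and -0.97 ± 0.63, and Tob1 read 0.02 ± 0.86. Id1, at -0.55 ± 0.21 and 1.83 ± 2.10, and Id2 and Id4 were not called. Ier5, which shares the early response naming of Ier3 but not its family, was higher at 4 h at 1.28 ± 0.01, and Ier2 read -0.02 ± 0.04.

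**Figure D4:**
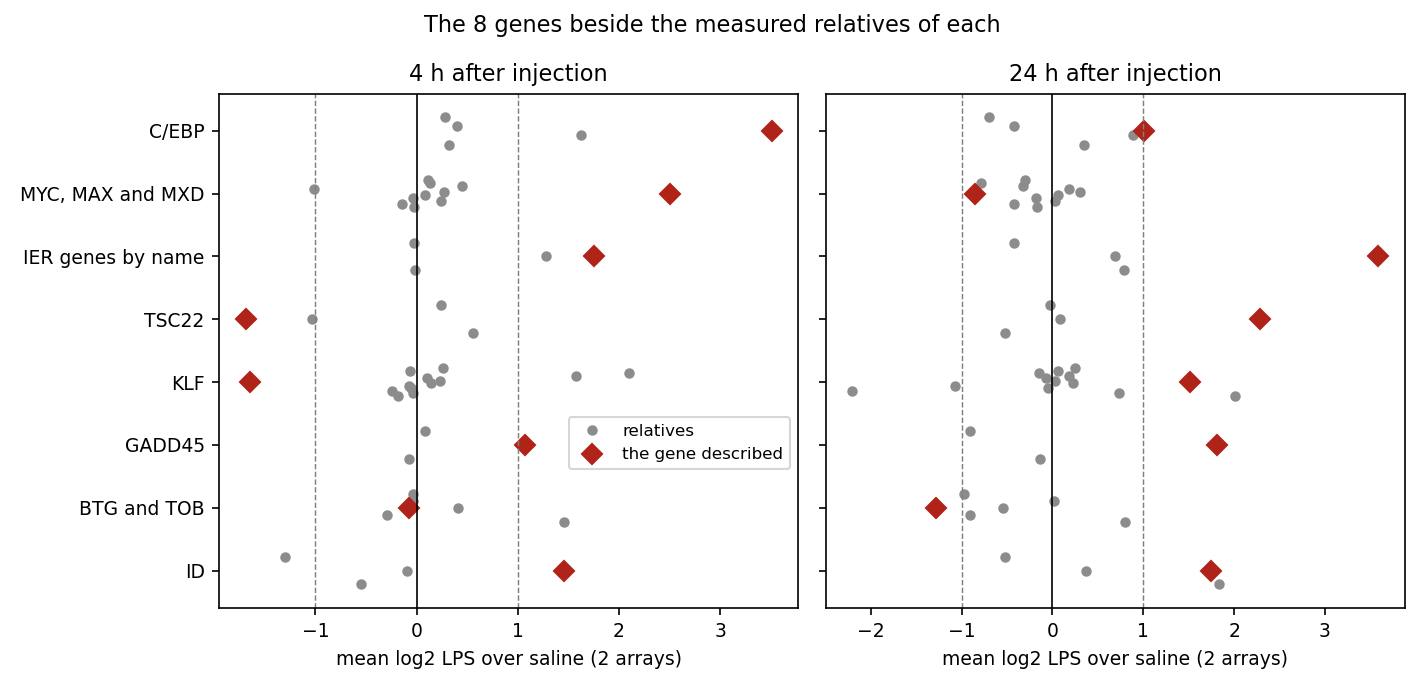
Mean log2 LPS over saline of 2 arrays (horizontal axis) at 4 h (left) and 24 h (right), with 1 row per family; red diamonds are the 8 genes, grey points their measured relatives, dashed lines 1 log2 unit. Cebpd at 3.51 and Myc at 2.50 lie to the right of their relatives at 4 h, and Tsc22d3 at -1.69 to the left.

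Other early response genes were taken from a list without the 8. Like the lists below, it was chosen with earlier results of these data known, so nothing is read from its counts. Of 39 measured, Ier5 and Phlda1, at 1.20 ± 0.24, were called higher at 4 h and 0 lower, beside 2.25% and 0.997% of all genes. At 24 h 0 were higher, and Nfil3, a basic leucine zipper repressor, was lower at -2.04 ± 1.34, its arrays at -1.09 and -2.98. Of all genes 3.48% were called higher and 3.52% lower at 24 h. Between the times 1 of the 39 was separated and higher at 24 h and 6 were separated and lower, beside 9.43% and 10.3% of all genes. The medians of the list, 0.13 at 4 h and 0.09 at 24 h, compare with -0.02 at each time over all genes.

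Glucocorticoid-induced genes other than Tsc22d3 numbered 20 measured. This list was also chosen with earlier results of these data known, so nothing is read from its counts. At 4 h 3 were called higher and 0 lower, beside 2.25% and 0.997% of all genes. They were the metallothionein Mt2 at 4.20 ± 2.16, the cell cycle inhibitor Cdkn1a at 1.18 ± 0.18 and the sulfotransferase Sult1a1 at 1.67 ± 0.05. At 24 h 5 were called higher and 0 lower, beside 3.48% and 3.52% of all genes. Mt2 read 3.66 ± 0.09, the kinase Sgk1 2.90 ± 1.00, Sult1a1 2.51 ± 0.44, Cdkn1a 2.04 ± 0.88 and Pdk4, which inhibits pyruvate dehydrogenase, 1.29 ± 0.07. Sgk1 at 4 h had arrays at 1.14 and -0.34, and Pdk4 read -0.21 ± 0.20, and both genes were separated and higher at 24 h. These were 2 of the 20, where 9.43% of all genes were separated and higher, and 1 of the 20, Glul, was separated and lower, by a difference of -1.25. Per1, Fkbp5 and Dusp1, well-known glucocorticoid targets picked out, like Glul, after their values were seen, were not called at either time, with Per1 at -0.15 ± 0.26 and -0.64 ± 0.08, Fkbp5 at 0.82 ± 0.63 and 0.07 ± 1.01 and Dusp1 at 0.70 ± 0.16 and -0.13 ± 0.43. The list medians were 0.38 at 4 h and 0.05 at 24 h. None of 8 measured genes of the glucocorticoid receptor machinery was called, and the gene of the receptor itself was not among them. Between the times 1 of them was separated and lower at 24 h, beside 10.3% of all genes.

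Genes downstream of or bound by the 8 were read from further lists, to be set against 2.25% of all genes called higher and 0.997% lower at 4 h, and 3.48% and 3.52% at 24 h. Among 15 MYC targets, the nucleolar protein Npm1, at 1.59 ± 0.21, and lactate dehydrogenase Ldha, at 2.06 ± 0.04, were higher at 4 h. At 24 h Npm1 at 1.98 ± 0.12 and Nme1 at 1.36 ± 0.08 were. The MYC targets had a median of 0.69 at 4 h and 0.08 at 24 h. Of 11 partners, Rela, the NF-kB subunit that GILZ binds, was higher at 4 h at 1.57 ± 0.28 and read -0.22 ± 0.14 at 24 h. None of the other partners, which included E proteins bound by Id3 and deadenylase subunits bound by Btg2, was called. Of 15 p53 targets, Cdkn1a, already counted among the glucocorticoid-induced genes, was higher at both times and Trp53inp1 was lower at 24 h at -2.57 ± 0.37. Of 26 BMP, TGF-beta and SMAD genes, the co-receptor Eng was lower at 4 h at -1.87 ± 0.84 and higher at 24 h at 3.91 ± 0.85, and the BMP antagonist Grem1 was lower at 24 h at -1.62 ± 0.06.

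For each gene, the 2 genes with the smallest Euclidean distance over the 4 array values were sought among 4060 genes. The spots of these 4060 lay within 1 log2 unit of each other on every array. The regulators described here were left out of the search, so none could be named as the neighbour of another. Btg2 had the nearest, Sorl1 at a distance of 0.19 and Cyp2d11 at 0.31. Gadd45g lay nearest to Cfdp1 at 0.41 and Vdac3 at 0.51, and Klf4 to Fabp5 at 0.57 and Pard3 at 0.69. Tsc22d3 was nearest to Kdr, the VEGF receptor, at 0.56, with -1.89 at 4 h and 2.21 at 24 h, and then to Ddt at 1.11. Id3 was nearest to Lbp at 0.64 and Vcam1 at 0.80, Cebpd to H2-Q7 at 0.97 and Ifit2 at 1.32, and Ier3 to Rhoc at 1.21 and Lpl at 1.43. Myc was farthest from its nearest genes, H3c7 at 1.98 and Frmd4b at 2.29. Its own spots on the first array of 24 h did not meet the limit of 1 log2 unit set for the genes searched, and on that array it read -2.78 and H3c7 -0.89.

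Ratios hold no levels, so the purity of the endothelium could not be read from marker genes, and in bulk RNA a change in the number of cells of a type and a change in RNA per cell cannot be told apart. The counts of markers below stand beside 2.25% of all genes called higher and 0.997% lower at 4 h, and 3.48% and 3.52% at 24 h. Of 12 measured endothelial markers 1 was higher and 2 were lower at 4 h, and 2 were higher at 24 h. Kdr and Eng were lower at 4 h and higher at 24 h, and Cldn5, which codes for a claudin of tight junctions, read 1.29 ± 0.10 at 4 h and was called higher. Of 12 neutrophil markers 0 were called at 4 h, where their means ran from -0.42 to 0.45. At 24 h the calprotectin genes S100a8, at 2.58 ± 1.17, and S100a9, at 1.55 ± 0.08, were higher and the granule gene Ngp was lower at -1.62 ± 0.82. Over the 12 neutrophil markers the means at 24 h ran from -1.62 to 2.58, with a median below 0, at -0.38. Of 14 cardiomyocyte markers Ryr2 was lower at 24 h at -1.40 ± 0.11, of 8 lymphocyte markers Cd5 was, on -2.70 and -1.29, and 0 of 9 macrophage, 6 fibroblast and 7 mural markers were called at either time. The part of these cells in the values of the 8 genes was not tested.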

How the data were processed

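Amplified RNA was measured on 4 arrays, and the authors deposited log2 ratios of 32448 spots. Each array's deposited median was 3e-07, and the SDs of the deposited values ran from 0.98 to 1.59. A value of 3e-07 counts here as a ratio of exactly 1, which many spots held. The median therefore does not show whether the authors had centred the values. Background correction, dye normalization and spot filters: not given in the sources used here. Ratios of exactly 1 made up 10.2% to 13.4% of the spots of an array. No intensities were used, so weak and strong spots could not be told apart, and precision is limited by how few arrays there are.

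Gene symbols came from the platform annotation. Of 24344 spots with 1 symbol, 24076 had an identifier in the RefSeq table (GRCm38.p6), with 0 symbols needing an update, and 98 spots with several symbols and 8006 unlisted spots were left out. Gene values are means over spots and then oligonucleotides, with the sign of arrays with LPS in Cy3 turned and the median of 11138 genes subtracted, a shift of at most 0.06. Spot values are given before this centring. Calls needed both arrays at 1 log2 unit or more. The code for calls was tested on simulated data. The 8 genes, and the lists, were chosen with earlier results of these data known. Named were the 8 genes, their relatives by value or in a range, list genes called at a time and the 2 nearest genes of each. Per1, Fkbp5, Dusp1 and Glul were named outside this rule. Python 3.11.15, numpy 2.4.6, pandas 2.3.3 and matplotlib 3.10.9 were used. In all, 11 alternatives were tried.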

Additional observations from a re-analysis of the deposited data

Results flagged for a closer look

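The genes below are those of the 8, their relatives, the called list genes and the nearest genes, with Glul, that had both arrays on 1 side of 0 at 4 h and both on the other side at 24 h, and the difference between the times was not tested. This pattern was common. Of all genes, 6.46% were below 0 at 4 h and above 0 at 24 h, and 5.84% were the reverse. Of 233 list genes other than the 8, 15 (6.44%) showed the first pattern and 15 the second. Of the 8 genes, Tsc22d3 changed by 3.97 and Klf4 by 3.16 log2 units from 4 h to 24 h, both from lower to higher. In the same sense, Eng changed by 5.77, Kdr by 4.10, Ddt by 3.21, Pard3 by 2.74, S100a8 by 2.71, Fabp5 by 2.68, Id1 by 2.38, S100a9 by 1.87 and Pdk4 by 1.5. In the opposite sense, Cldn5 changed by -1.96, Rela by -1.79, Phlda1 by -1.47, Glul by -1.25, Tsc22d1 by -1.09, Ddit3 by -0.99, Mlx by -0.92, Cebpg by -0.82 and Mnt by -0.78. A value of 0, a ratio of 1, was counted with those above 0 in this listing. Cebpg read 0 on the reversed array of 4 h, so its change of side is not shown. With 2 arrays per time, no array could be set against the others of its time.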

How the results depend on the processing

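No paired analysis was possible because the arrays carry no shared animals or extracts in the labels. The direction of the arrays with LPS in Cy3 decided the calls. With their sign left as deposited, 0 of the 8 genes were called at 4 h, 1 (Myc, lower) at 24 h and 0 were separated between times. The means of Myc, Tsc22d3 and Id3 at 4 h then became -0.73, 0.40 and -0.28. Of the other genes named, Btg1, Sult1a1, Rela, Eng, Kdr, Cldn5, Ifit2 and H3c7 at 4 h became -0.013, -0.039, -0.20, 0.60, 0.53, -0.072, -0.090 and -0.49. At 24 h Klf1, Nfil3, Mt2, Cdkn1a, Pdk4, Sult1a1, Grem1, Ryr2, S100a9, Ifit2 and Ddt became -0.17, 0.95, -0.062, -0.63, -0.052, -0.31, 0.043, 0.075, -0.059, -0.030 and -0.40. This alternative averages values of opposite sign by construction. At a threshold of 1.5 log2 units, 2 genes (Cebpd and Myc) were called at 4 h and 2 (Ier3 and Tsc22d3) at 24 h. With only spots agreeing within 0.5 log2 units, 3 genes (Cebpd, Tsc22d3 and Btg2) were separated, while Myc, Klf4 and Gadd45g lacked agreeing spots on at least 1 array. Scale and quantile normalization each called 7 genes at 4 h, Klf4 included, and 4 at 24 h, without Klf4, and neither turned the sign of a called value. Scale normalization also left Btg2 uncalled at 24 h and quantile normalization Id3, and each separated 4 genes, without Btg2. Leaving out centring or ratios of exactly 1, or taking the median over spots, called 6 at each time. Over all genes, 362 were called at 4 h and 780 at 24 h, and 2201 were separated. These counts became 591, 470 and 2135 with scale normalization, and 561, 525 and 2143 with quantile normalization. Without centring they were 360, 760 and 2185, and with the median over spots 360, 775 and 2173. With ratios of exactly 1 left out they were 385, 798 and 2152 of 10390 genes. They were 1166, 2152 and 3548 at a threshold of 0.5, 146, 270 and 1199 at 1.5, and 158, 411 and 1298 without turning. With agreeing spots they were 93, 265 and 471 of the 2214 genes that had them. With 1 array left out, 6 to 7 genes passed 1 unit at 4 h and 7 to 8 at 24 h. Either direction counted, so Myc passed at 24 h on each array alone, at -2.78 and 1.08. Between the times 5 to 7 were separated. The shares of all genes were not computed for these looser criteria, so nothing is read from the counts.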
